A study of Mus musculus with 6 samples.

Results

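Chemokines and their receptors were taken from the deposited gene table by symbol alone: every row named as a numbered CC or CXC ligand or receptor (Ccl, Cxcl, Ccr or Cxcr), together with Cx3cl1 and Cx3cr1. This gave 54 of 52550 rows, 37 ligands and 17 receptors. Their levels were measured in left ventricular RNA from 12-month-old C57BL/6J mice. The labels give 3 libraries as PKI, with PGC-1α overexpressed, and 3 as wild-type (WT). The labels do not say which promoter or cell type drove the overexpression, nor that each library came from a separate animal, so a p-value here reflects the scatter among libraries, part or all of which may be technical. Values are FPKM, the fragments of a gene divided by transcript length and by the library's total. Levels may therefore be compared roughly between genes. Division by the total does not by itself make libraries comparable, and a shift between the groups is given below. Averaged over all 6 libraries, 13 members reached 1 FPKM, 12 ligands and 1 receptor, and these were tested. Another 30 members were above 0 in at least 1 library but below that mean, and 11 were listed at 0 in all 6.

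Chemokines are small secreted proteins that direct the migration of leukocytes. They are classed by the spacing of their first cysteines into CC, CXC and CX3C families, bind to heparan sulphate on cells and matrix, and signal through receptors coupled to inhibitory G proteins. Inflammatory chemokines are induced by cytokines and recruit monocytes, neutrophils, eosinophils and lymphocytes, whereas homeostatic chemokines hold or guide cells in resting tissue. In the heart, ligands of the CCR2 receptor draw monocytes from blood, and CXCL12 acts on its receptor CXCR4 on leukocytes, endothelium and cardiomyocytes.

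Promoter sequences are shown for 4 members that were higher in libraries labelled PKI, each holding a motif marked below in capitals. The members are Ccl8, which had the largest change, Ccl9, Cx3cl1, and Cxcl1, a ligand of low level. The sequences have 300 bases each, from 250 before to 50 after the annotated start. They were read from RefSeq on GRCm38.p6, in the direction of transcription. Capitals mark matches on either strand to the κB consensus, the letters bound by NF-κB, or to TATAAA. A match describes the letters and is not evidence of a site.
Ccl8 (chr11:82114935-82115234, plus strand): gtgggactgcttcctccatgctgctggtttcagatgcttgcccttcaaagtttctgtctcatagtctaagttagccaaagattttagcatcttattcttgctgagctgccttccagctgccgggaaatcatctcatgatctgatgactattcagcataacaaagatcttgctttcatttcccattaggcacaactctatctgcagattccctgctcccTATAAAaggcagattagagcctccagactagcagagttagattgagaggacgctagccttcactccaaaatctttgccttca
Ccl9 (chr11:83578587-83578886, minus strand): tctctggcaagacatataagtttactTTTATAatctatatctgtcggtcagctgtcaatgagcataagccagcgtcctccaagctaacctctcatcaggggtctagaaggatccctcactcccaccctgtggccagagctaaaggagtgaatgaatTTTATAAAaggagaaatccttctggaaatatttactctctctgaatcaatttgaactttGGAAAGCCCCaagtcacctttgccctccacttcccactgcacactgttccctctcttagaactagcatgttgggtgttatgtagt
Cx3cl1 (chr8:94771930-94772229, plus strand): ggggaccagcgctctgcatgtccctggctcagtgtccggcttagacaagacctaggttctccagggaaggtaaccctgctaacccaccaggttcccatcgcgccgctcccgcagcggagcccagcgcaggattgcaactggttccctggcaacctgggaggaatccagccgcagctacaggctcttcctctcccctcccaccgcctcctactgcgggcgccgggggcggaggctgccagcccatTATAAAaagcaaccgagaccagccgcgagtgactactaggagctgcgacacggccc
Cxcl1 (chr5:90890995-90891294, plus strand): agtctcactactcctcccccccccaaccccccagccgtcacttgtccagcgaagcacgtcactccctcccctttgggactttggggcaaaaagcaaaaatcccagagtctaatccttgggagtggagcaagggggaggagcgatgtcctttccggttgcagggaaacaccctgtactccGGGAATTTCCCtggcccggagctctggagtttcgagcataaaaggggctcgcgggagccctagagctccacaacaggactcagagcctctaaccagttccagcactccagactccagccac
In Ccl8 and Cx3cl1 the capitals are TATAAA, which begins 32 and 6 bases before the start. In Cxcl1 they are a pair of overlapping κB matches, the first beginning 71 bases before the start. Ccl9 has both motifs, with its κB match beginning 35 bases before the start. RefSeq promoters were matched for 39 of the 54 members. Of these 39, 9 (23.1%) held a κB match in any of their promoters, against 5.14% of all 27025 genes with a RefSeq promoter. The members with a match were Ccl9, Cxcl1, Cxcl2, Cxcl3, Cxcl10, Ccl20, Ccl27a, Ccr3 and Ccr6, of which 1, Ccl9, reached the level for testing. TATAAA was found in 11 of the 39 (28.2%), against 15.7% of all genes. Of 10 tested members with a promoter, 5 held TATAAA: Ccl8, Ccl9, Cx3cl1, Cxcr4, which was lower, and Cxcl13, which was not called. The higher members Ccl6, Ccl21a, Cxcl12 and Cxcl14 held neither TATAAA nor a κB match. Ccl21b also held neither, but its matched promoter lies away from its position in GENCODE M21. The AP-1 motif TGANTCA was found in 8 of the 39 (20.5%), against 8.97% of all genes. The STAT motif, TTC and GAA with 3 bases between, was found in 3 (7.69%), against 9.55%, and the interferon response core, GAAA and GAAA with 2 bases between, in 3 (7.69%), against 3.99%. These shares have no test.

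The gene named in the genotype did not follow its label. Ppargc1a, which encodes PGC-1α, was at 11.6, 11.8 and 11.4 FPKM in libraries labelled PKI, against 14.2, 12.8 and 12.4 FPKM in libraries labelled WT (log2 change −0.16, limma adjusted p = 0.0967). After median-of-ratios scaling it was called lower, at −0.44 (adjusted p = 0.00521, where all alternatives gave 0.00521 to 0.218). Directions therefore follow the labels and not a measured rise of PGC-1α. Across the 9907 genes averaging 1 FPKM or more, the median log2 change (labelled PKI minus WT) was 0.21, and 39.4% were called at an adjusted p under 0.05 by limma on log2(FPKM + 1). Dividing each library by a median-of-ratios size factor, called scaling here, brought the median to −0.02. Changes are therefore given as deposited and after scaling, and log2(FPKM + 1) understates the change of low genes. Cardiomyocyte markers were abundant in every library, with 8 of them summing to between 5947 and 6332 FPKM in libraries labelled PKI and between 6640 and 6989 FPKM in libraries labelled WT. Of these 8, 1 rose and 4 fell as deposited, and 0 rose and 7 fell after scaling.

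Most chemokine ligands that reached the level for testing were higher in libraries labelled PKI, while the eosinophil attractant Ccl11 and the receptor Cxcr4 were lower. Of the 13 tested members, 9 were called higher, where 36.4% of all tested genes were, and 2 were called lower, where 2.96% of all tested genes were (limma, adjusted p under 0.05). Their median log2 change was 0.62, beside 0.21 over all tested genes. After scaling, 5 were called higher and 2 lower, beside 7.82% and 9.18% of all tested genes, and the median was 0.43. Ccl21a and Ccl21b, called higher both times, have nearly identical transcripts and are not independent. Every library labelled PKI lay above every WT library for 9 of the 13 members and below for 2, beside 51.3% and 4.53% of all tested genes. Ccl9 reached the level for testing through its values in libraries labelled PKI, and Cxcl13 through its values in libraries labelled WT, so these counts describe the members that passed and not the whole family.

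**Figure D1:**
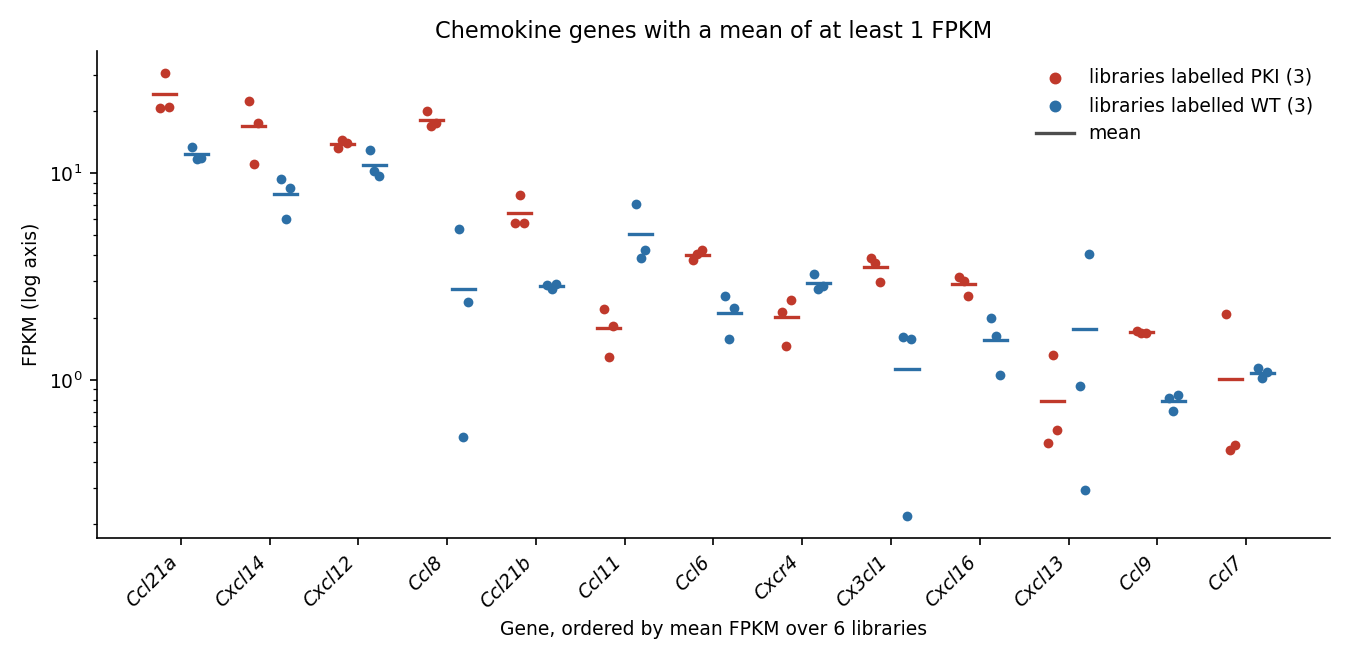
FPKM of the 13 tested chemokine genes, on a log axis, with 1 point per library (3 labelled PKI, 3 labelled WT) and the group mean as a bar. The groups do not overlap for 11 of the 13 genes, and Ccl8, Cx3cl1, Cxcl13 and Ccl7 have the widest spread within a group.

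Of 16 inflammatory CC ligands, 5 were tested, of which 3 rose, 1 fell and 1 did not pass. Ccl8 showed the largest change of any tested member. Ccl8 (monocyte chemoattractant protein 2, which in mice acts on CCR8) was at 20.004, 16.9 and 17.4 FPKM in libraries labelled PKI, against 5.36, 0.528 and 2.38 FPKM in libraries labelled WT. The 3 libraries labelled PKI were close together and the WT libraries were spread widely, without overlap. The ratio of means was 6.58, and the log2 change was 2.57 (SE 0.45, limma adjusted p = 0.00635), or 2.34 after scaling, which also passed. It remained called without any 1 library, with log2 changes from 2.04 without WT replicate 2 to 3.07 without WT replicate 1 (adjusted p between 0.00225 and 0.0238).

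Ccl6 and Ccl9 are neighbouring genes for ligands of CCR1 that macrophages make. Ccl9 was at 1.73, 1.69 and 1.68 FPKM in libraries labelled PKI and at 0.818, 0.709 and 0.840 FPKM in libraries labelled WT. Both groups were tight and did not overlap. Ccl9 reached the level for testing through its values in libraries labelled PKI. Its mean therefore had to be higher there, and its test is not given in the text. Ccl6 was at 3.80, 4.05 and 4.23 FPKM in libraries labelled PKI, against 2.54, 1.58 and 2.23 FPKM in libraries labelled WT. Again no WT library reached the lowest library labelled PKI, and the ratio was 1.90 (log2 0.70, SE 0.12, limma adjusted p = 0.00596). The rise of Ccl6 also passed after scaling, at log2 0.48.

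Ccl11, or eotaxin, an attractant of eosinophils through CCR3, moved the other way. It was at 2.20, 1.29 and 1.83 FPKM in libraries labelled PKI, against 7.08, 3.88 and 4.25 FPKM in libraries labelled WT. Its highest library labelled PKI was below its lowest WT library. Ccl11 fell to 1.77 ± 0.460 FPKM in libraries labelled PKI, against 5.07 ± 1.75 FPKM in libraries labelled WT (SD, n = 3 each). That is 2.86-fold lower, with a log2 change of −1.11 (SE 0.21, limma adjusted p = 0.00808) as deposited and −1.32 after scaling. The call held when any 1 library was left out, with log2 changes from −1.24 to −0.88. Ccl7, a ligand of CCR2, did not pass (log2 −0.15, limma adjusted p = 0.681). Its values were 2.08, 0.455 and 0.482 FPKM in libraries labelled PKI and 1.14, 1.02 and 1.09 FPKM in libraries labelled WT, so that PKI replicate 1 stood above all WT libraries and the other two below. Without PKI replicate 1 the log2 change was −0.50 (adjusted p = 0.0113, where the range over all alternatives was 0.0113 to 0.954).

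**Figure D2:**
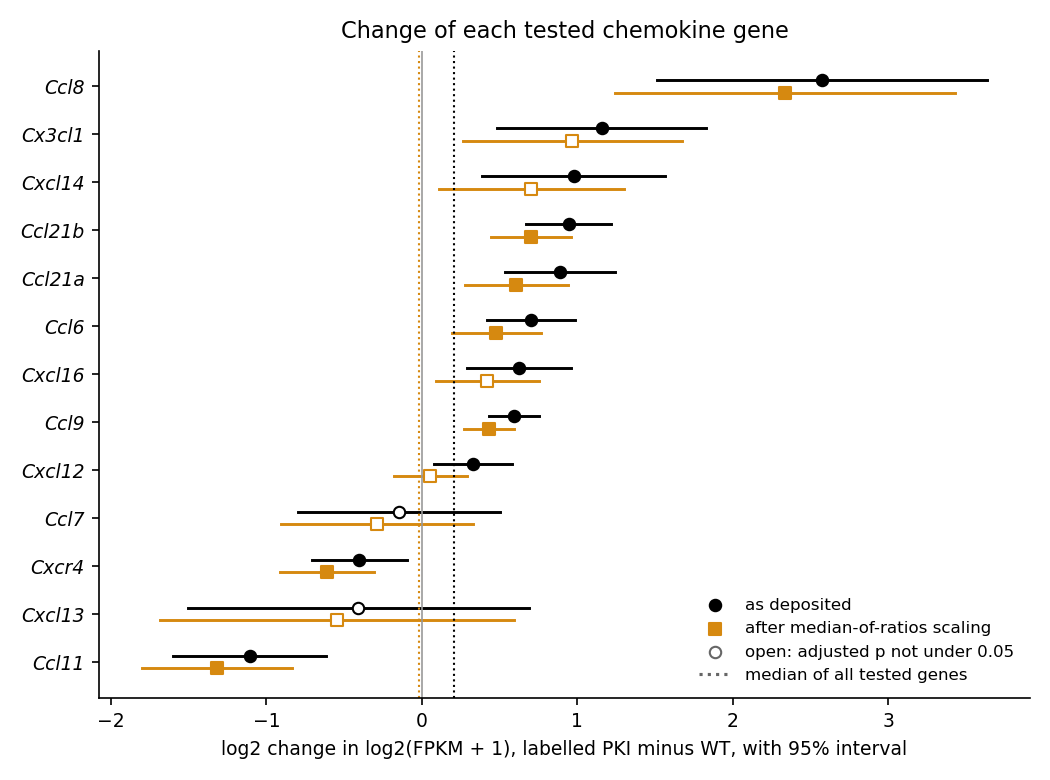
Log2 change (labelled PKI minus WT, in log2(FPKM + 1)) of the 13 tested chemokine genes with its 95% interval, as deposited (black circles) and after median-of-ratios scaling (orange squares). Filled symbols passed at an adjusted p under 0.05, and dotted lines mark the median of all tested genes, 0.21 as deposited and −0.02 after scaling. Scaling left 5 of the 9 higher calls and both lower calls. Ccl9 reached the level for testing through libraries labelled PKI, and Cxcl13 through libraries labelled WT.

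Of 7 homeostatic CC ligands, 2 were tested and both rose, Ccl21a and Ccl21b. Ccl21a had the highest mean level of the 54 members. CCL21 is made by lymphatic endothelium and lymphoid stroma, and brings dendritic cells and T cells in through CCR7. Ccl21a was at 20.8, 30.6 and 20.8 FPKM in libraries labelled PKI and at 13.4, 11.7 and 11.9 FPKM in libraries labelled WT. Every library labelled PKI was above every WT library, the ratio was 1.95, and the log2 change was 0.89 (SE 0.15, limma adjusted p = 0.00557). Ccl21b was at 5.72, 7.87 and 5.78 FPKM in libraries labelled PKI, against 2.87, 2.75 and 2.91 FPKM in libraries labelled WT (log2 0.94, SE 0.12, limma adjusted p = 0.00191). After scaling the changes were 0.61 for Ccl21a and 0.70 for Ccl21b, and both passed.

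Ccl21a and Ccl21b cannot be read as independent genes. Their transcripts in GENCODE M21 are 99.5% identical, and the Ccl21b transcript is 100% identical over its whole length to transcripts of the predicted genes Gm10591, Gm13304 and Gm21541. Gm10591 was at 5.69, 7.86 and 5.78 FPKM in libraries labelled PKI and at 2.82, 2.73 and 2.91 FPKM in libraries labelled WT, almost the values of Ccl21b. The sources used here do not say how reads were divided among the copies. The 5 rows together summed to 46.9 ± 10.3 FPKM in libraries labelled PKI and 22.4 ± 1.02 FPKM in libraries labelled WT (SD, n = 3 each), a ratio of 2.09. The other 11 tested members had 0 near-identical copies by the same criterion of at least 95% identity over at least 50% of the transcript.

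Among CXC ligands, Cxcl12 and Cxcl14 had the highest levels. CXCL12 is the ligand of CXCR4 and of the scavenging receptor ACKR3. Cxcl12 was at 13.3, 14.5 and 14.0 FPKM in libraries labelled PKI and at 12.9, 10.2 and 9.74 FPKM in libraries labelled WT. The groups just failed to overlap, and the ratio was 1.27 (log2 0.33, SE 0.11, limma adjusted p = 0.0448). After scaling the log2 change was 0.05 and did not pass. The call was also lost without PKI replicate 1, 2 or 3 and without WT replicate 2 or 3, at an adjusted p between 0.0762 and 0.131, and it was kept without WT replicate 1 (0.00800).

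Cxcl14, a chemokine of epithelia and stroma, was at 22.3, 11.1 and 17.5 FPKM in libraries labelled PKI, against 9.38, 5.98 and 8.47 FPKM in libraries labelled WT. Its libraries labelled PKI differed from each other by more than the lowest of them differed from the highest WT library, and the groups did not overlap. The ratio was 2.14 and the log2 change 0.98 (SE 0.25, limma adjusted p = 0.0219). After scaling it was 0.70 and did not pass, nor did it pass without PKI replicate 1 or 3 or WT replicate 2 or 3 (adjusted p between 0.0536 and 0.0639, where all alternatives gave 0.00655 to 0.106). Cxcl13, the B cell attractant that binds CXCR5, was at 0.492, 1.31 and 0.572 FPKM in libraries labelled PKI and at 0.936, 0.292 and 4.07 FPKM in libraries labelled WT. WT replicate 3 was the highest library and WT replicate 2 the lowest, and the difference did not pass (log2 −0.41, limma adjusted p = 0.499). Without WT replicate 3 its direction turned, to a log2 change of 0.15.

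Cx3cl1 and Cxcl16, the chemokines made as membrane-anchored proteins with a mucin-like stalk, were higher as deposited. Cx3cl1 (fractalkine, which binds CX3CR1 on monocytes and macrophages) was at 3.88, 3.67 and 2.97 FPKM in libraries labelled PKI and at 1.61, 0.220 and 1.57 FPKM in libraries labelled WT. WT replicate 2 was far below the other WT libraries, all of which were below the libraries labelled PKI. The ratio was 3.10 and the log2 change 1.16 (SE 0.29, limma adjusted p = 0.0196), or 0.79 without WT replicate 2 (adjusted p = 0.00756, the lowest of its alternatives, which reached 0.0691). The call was lost without PKI replicate 1 (0.0567) or PKI replicate 2 (0.0534).

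Cxcl16, the ligand that binds CXCR6 on T cells, was at 3.15, 3.02 and 2.55 FPKM in libraries labelled PKI and at 1.99, 1.63 and 1.06 FPKM in libraries labelled WT. The groups did not overlap, with a ratio of 1.86 and a log2 change of 0.62 (SE 0.14, limma adjusted p = 0.0154). After scaling, Cx3cl1 was at log2 0.97 and Cxcl16 at 0.42, and neither passed. Of the exon bases of Cxcl16, 18.3% are also exon bases of Zmynd15 on the opposite strand, and the library kit does not mark strand, so reads of the 2 genes cannot be told apart there.

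Cxcr4 was the single receptor that reached the level for testing. It was at 2.13, 1.46 and 2.45 FPKM in libraries labelled PKI and at 3.24, 2.75 and 2.85 FPKM in libraries labelled WT. All libraries labelled PKI were lower than all WT libraries, and the mean was 1.46-fold lower (log2 −0.40, SE 0.13, limma adjusted p = 0.0452). After scaling the log2 change was −0.61 and passed. As deposited the call was lost without PKI replicate 1 or 2 or any 1 WT library (adjusted p between 0.0723 and 0.111), and it was kept without PKI replicate 3 (0.0354). Its ligand Cxcl12 was not lower. Ackr3, outside the numbered family, encodes the other CXCL12 receptor, which removes the ligand from the tissue. Ackr3 was at 16.7, 18.03 and 17.8 FPKM in libraries labelled PKI, against 12.0, 11.4 and 10.7 FPKM in libraries labelled WT (log2 0.58, SE 0.07, limma adjusted p = 0.00169; 0.30 after scaling, also called).

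The other receptors were low. CCR2, the receptor of monocyte-attracting ligands, had the highest level among them: Ccr2 averaged 0.696 ± 0.205 FPKM in libraries labelled PKI and 0.399 ± 0.164 FPKM in libraries labelled WT (SD, n = 3 each). Cx3cr1, the fractalkine receptor of monocytes and macrophages, was at 0.611 ± 0.212 and 0.276 ± 0.123 FPKM in libraries labelled PKI and WT. Cxcr6, the receptor of CXCL16, was at 0.433, 0.756 and 0.197 FPKM in libraries labelled PKI and at 0.143, 0 and 0.0980 FPKM in libraries labelled WT. Ccr1, the receptor of CCL6 and CCL9, ranged from 0.108 to 0.499 FPKM in libraries labelled PKI and from 0.0386 to 0.588 FPKM in libraries labelled WT. As deposited, the libraries labelled PKI were all above the WT libraries for Ccr2, Cx3cr1 and Cxcr6, and the groups overlapped for Ccr1. In a fit without a filter on low values, Ccr2, Cx3cr1 and Cxcr6 were not called (limma adjusted p = 0.219, 0.129 and 0.118).

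Several ligands were measured where their receptor was at or near 0. Ccr8, the receptor of mouse CCL8, was listed at 0 in all 6 libraries, as were Ccr4, Ccr6 and Cxcr5. Ccr3, the eotaxin receptor, was above 0 in 1 library only, PKI replicate 1, at 0.0156 FPKM. Ccr7, the receptor of CCL19 and CCL21, was at 0.0779, 0.176 and 0.101 FPKM in libraries labelled PKI and listed at 0 in all WT libraries. Ccr9, Ccr10, Cxcr1, Cxcr2 and Cxcr3 averaged below 0.1 FPKM over the 6 libraries. Depth is unknown, so a value listed at 0 does not show that the transcript was absent. Of 18 commonly used reference genes, 0 were listed at 0 in any library. Such genes are used because most cells express them, so this count does not show whether depth sufficed for receptors of rare cells.

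Below 1 FPKM, 16 members had a mean of at least 0.1 FPKM, 14 were lower but above 0, and 11 were at 0. Among the 30 members above 0, libraries labelled PKI had the higher mean for 24 and the lower for 6. The same share over all genes of this level was not counted, and deposited values were shifted upward in libraries labelled PKI. That count is therefore not a result about the members. Low members were compared as deposited only, here and in the fit without a filter, so the upward shift is not removed. Libraries labelled PKI lay entirely above the WT libraries for 9 of the 30, beside 15.2% of all genes of this level. They lay entirely below for 0, beside 2.30%. In the fit without a filter on low values, an alternative to the tested set, 3 of the 30 were called higher and 0 lower, beside 3.46% and 0.487% of genes of this level (limma, adjusted p under 0.05). Those 3 were Cxcl1, Cxcl5 and Ccr7. At an unadjusted p under 0.05, 8 of the 30 were higher and 0 lower, beside 12.0% and 1.73% of genes of this level.

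Cxcl1 and Cxcl5 are ligands of CXCR2, the receptor through which neutrophils are recruited. Cxcl1 was at 0.768, 0.592 and 0.625 FPKM in libraries labelled PKI and at 0.197, 0.257 and 0.140 FPKM in libraries labelled WT, a ratio of 3.34 with no overlap (log2 0.47, limma adjusted p = 0.0134 without a filter). Cxcl5 was at 0.690, 0.662 and 0.338 FPKM in libraries labelled PKI and at 0.184, 0 and 0.0757 FPKM in libraries labelled WT (log2 0.52, limma adjusted p = 0.0381 without a filter). Cxcl2, of the same receptor, was at or below 0.0482 FPKM in every library, and Cxcl3 was listed at 0. Cxcr2 itself did not exceed 0.0458 FPKM in libraries labelled PKI and 0.151 FPKM in libraries labelled WT. The neutrophil markers overlapped between the groups: their 8 rows summed to between 1.65 and 2.55 FPKM in libraries labelled PKI and between 0.777 and 4.23 FPKM in libraries labelled WT, with Ly6g among the 3 listed at 0 throughout.

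The CCR2 ligands Ccl2 and Ccl12 were low and did not separate the groups. Ccl2, the main monocyte attractant, was at 0.994, 0.648 and 1.10 FPKM in libraries labelled PKI and at 0.822, 0.535 and 0.208 FPKM in libraries labelled WT. Ccl12 averaged 1.05 ± 0.338 FPKM in libraries labelled PKI and 0.740 ± 0.330 FPKM in libraries labelled WT. The interferon-induced ligands of CXCR3 differed from one another: Cxcl9 averaged 0.813 ± 0.241 FPKM in libraries labelled PKI and 1.11 ± 0.246 FPKM in libraries labelled WT, with overlap. Cxcl10 was at 0.238, 0.0883 and 0.332 FPKM in libraries labelled PKI, all above the 0.0204, 0.0564 and 0 FPKM of libraries labelled WT. Cxcl11 did not exceed 0.0257 FPKM in any library. None of these 5 passed in the fit without a filter, where their adjusted p lay between 0.0923 (Cxcl10) and 0.802 (Cxcl11).

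**Figure D3:**
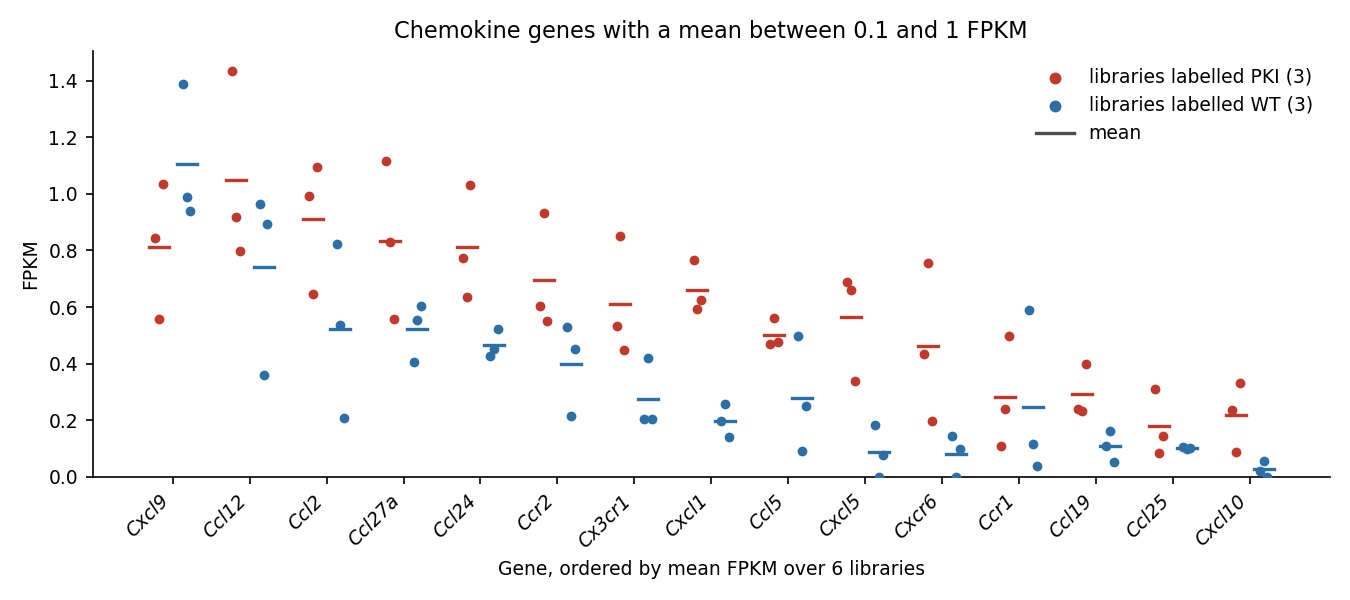
FPKM, on a linear axis from 0, of 15 of the 16 chemokine genes with a mean between 0.1 and 1 FPKM, with 1 point per library and the group mean as a bar. Values are as deposited, not scaled. Cxcl1, Cxcl5, Cxcl10, Ccl19, Ccl24, Ccr2, Cx3cr1 and Cxcr6 have all 3 libraries labelled PKI above all 3 libraries labelled WT, and Cxcl9 and Ccr1 show wide overlap.

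Of the remaining low ligands, Ccl24 (eotaxin-2, which like CCL11 acts on CCR3) was at 0.774, 0.636 and 1.03 FPKM in libraries labelled PKI and at 0.428, 0.450 and 0.523 FPKM in libraries labelled WT. Its direction was thus opposite to that of Ccl11, and it did not pass without a filter (adjusted p = 0.0996). Ccl19, the other CCR7 ligand, averaged 0.291 ± 0.0937 FPKM in libraries labelled PKI and 0.108 ± 0.0555 FPKM in libraries labelled WT, without overlap. Ccl5, an attractant of T cells, averaged 0.501 ± 0.0516 and 0.279 ± 0.206 FPKM in libraries labelled PKI and WT, Ccl27a 0.834 ± 0.279 and 0.521 ± 0.103 FPKM, and Ccl25 0.1796 ± 0.117 and 0.101 ± 0.00219 FPKM, each with overlap. Ccl3, Ccl4, Ccl17, Ccl22 and Ccl28 averaged below 0.1 FPKM over the 6 libraries. Ccl1, Ccl20, Ccl26, Ccl27b, Cxcl15 and Cxcl17 were listed at 0 throughout.

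The members lie in clusters, and neighbours differed in level and direction. On chromosome 11 (GRCm38, from GENCODE M21 by gene identifier) Ccl2, Ccl7, Ccl11, Ccl12, Ccl8 and Ccl1 follow each other between chr11:82035571-82305690. Within these 270 kb, Ccl11 (chr11:82057823-82062955) was lower in libraries labelled PKI and Ccl8 (chr11:82115185-82116799), 52.2 kb further on, was higher, while Ccl12 between them and Ccl2 and Ccl7 before them did not separate the groups. A second cluster of 139 kb (chr11:83525778-83664683) holds Ccl5, Ccl9, Ccl6, Ccl3 and Ccl4. There the adjacent Ccl9 and Ccl6 were both higher, and Ccl3 and Ccl4 were above 0 in 1 library each. On chromosome 5, Cxcl5, Cxcl3, Cxcl15, Cxcl1 and Cxcl2 lie within 147 kb (chr5:90759360-90905938). Only Cxcl5 and Cxcl1 of these 5 exceeded 0.1 FPKM in any library.

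**Figure D4:**
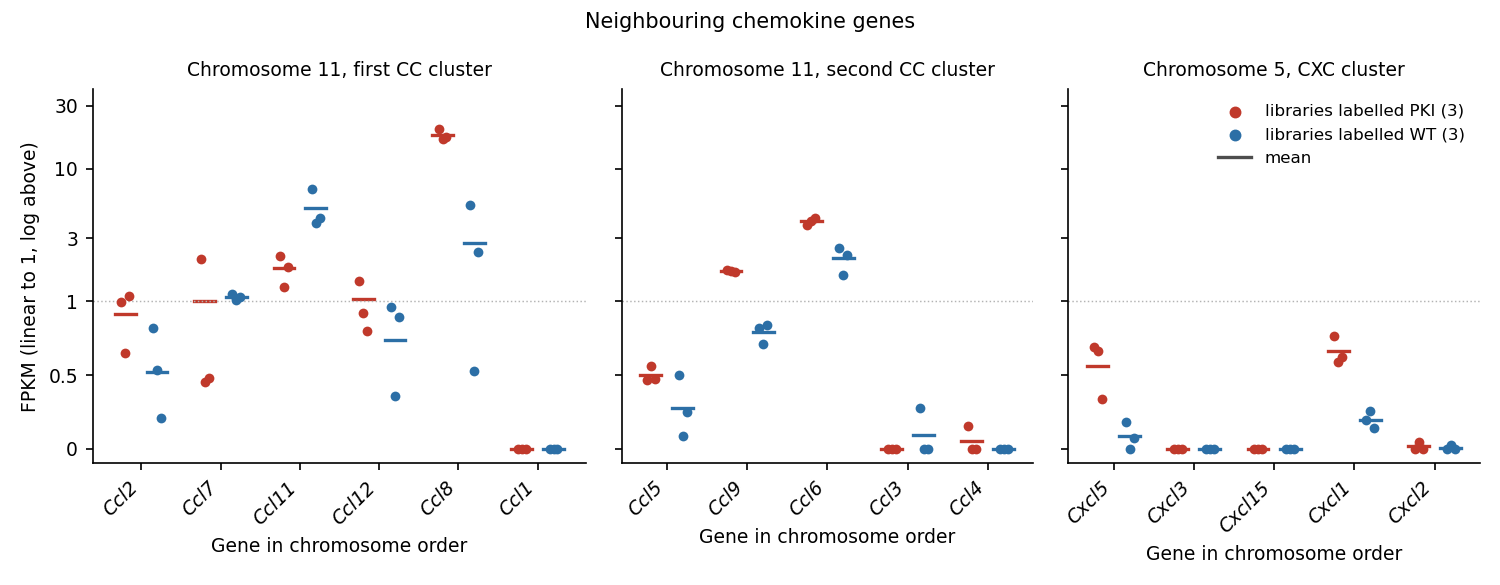
FPKM of chemokine genes in the order in which they lie in 3 clusters on chromosomes 11 and 5, with 1 point per library and the group mean as a bar. The axis is linear up to 1 FPKM (dotted line) and logarithmic above. Ccl11 is lower and Ccl8 higher in libraries labelled PKI within the same cluster, and genes listed at or near 0 stand beside measured ones.

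Summed over families, ligand levels differed between the groups and receptor levels did not separate. The 37 ligands summed to 108, 103 and 97.2 FPKM in libraries labelled PKI, against 65.6, 44.2 and 54.4 FPKM in libraries labelled WT. The 17 receptors summed to 4.61, 5.08 and 4.89 FPKM in libraries labelled PKI, within the 5.34, 3.73 and 4.05 FPKM of libraries labelled WT. Cxcr4, which was lower, was the largest part, averaging 2.01 of 4.86 FPKM in libraries labelled PKI and 2.95 of 4.37 FPKM in libraries labelled WT. The receptor sum therefore does not describe the other receptors. Of 12 others above 0, libraries labelled PKI lay entirely above for 4 and entirely below for 0, as deposited, beside 15.2% and 2.30% of all genes below 1 FPKM. As a share of the ligand sum, Ccl8 made up 18.6%, 16.5% and 17.9% in libraries labelled PKI, against 8.18%, 1.20% and 4.37% in libraries labelled WT. Ccl11 made up 2.05%, 1.26% and 1.88% in libraries labelled PKI, against 10.8%, 8.79% and 7.81% in libraries labelled WT. Cxcl12 held 12.4%, 14.1% and 14.4% in libraries labelled PKI and 19.7%, 23.1% and 17.9% in libraries labelled WT. These shares do not depend on the scaling of the libraries.

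Markers of macrophages and fibroblasts were higher in libraries labelled PKI, and those of T and NK cells and of neutrophils overlapped between the groups. In whole tissue, fewer cells of a type and less RNA per cell cannot be told apart. Of 12 tested macrophage markers, 11 rose (8 after scaling), beside 36.4% of all tested genes (7.82% after scaling). Their median log2 change was 0.88, beside 0.21 over all tested genes, and none of the 14 in the list was listed at 0 throughout. Their sum was 241, 243 and 223 FPKM in libraries labelled PKI and 117, 77.8 and 97.2 FPKM in libraries labelled WT. C1qa and Cd68, of complement and the lysosome, were 2.51-fold and 2.80-fold higher. The part of macrophage RNA in the chemokine changes was not tested. Set against the macrophage sum of the same library, Ccl8 was at 6.95 to 8.30 FPKM per 100 FPKM of markers in libraries labelled PKI and 0.679 to 4.57 in libraries labelled WT, without overlap. On the same measure Ccl9 overlapped (0.694 to 0.751 in libraries labelled PKI and 0.698 to 0.912 in libraries labelled WT), and Ccl6 was lower in libraries labelled PKI (1.58 to 1.90, against 2.04 to 2.29 in libraries labelled WT).

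Of 10 tested fibroblast markers, 9 rose (also 9 after scaling), on the same background. Their median log2 change was 1.66, and they summed to 278, 356 and 282 FPKM in libraries labelled PKI, against 134, 90.8 and 96.7 FPKM in libraries labelled WT. Of these, 0 were listed at 0 throughout. Their part in the levels of Cxcl14, Cxcl12 and Ccl11, which stromal cells make, was not tested. Per 100 FPKM of fibroblast markers, Ccl11 was at 0.362 to 0.792 FPKM in libraries labelled PKI and 4.27 to 5.28 FPKM in libraries labelled WT. On this measure Cxcl12 was lower in every library labelled PKI (4.08 to 4.96, against 9.65 to 11.2 in libraries labelled WT). Cxcl14 overlapped (3.12 to 8.02 in libraries labelled PKI and 6.59 to 8.75 in libraries labelled WT). The fibroblast list includes collagen genes, so its sum cannot be read as the number of fibroblasts. Beside Ccl21a, 3 of 5 tested markers of lymphatic endothelium rose (2 higher and 1 lower after scaling), Pdpn, of podoplanin, by 2.89-fold, and 0 of the 6 in the list were at 0 throughout. Pdpn and 1 other of the 5, Mmrn1, averaged under 1 FPKM in libraries labelled WT and were tested only through libraries labelled PKI. The list shares 1 gene, Lyve1, with the macrophage list. As deposited, the 6 summed to 18.1 ± 1.66 FPKM in libraries labelled PKI and 13.7 ± 0.502 FPKM in libraries labelled WT (SD, n = 3 each), without overlap. Marker sums were not compared after scaling, so this separation may owe to the shift between the groups. Prox1, which defines lymphatic endothelium and is also expressed in cardiomyocytes, was at 7.87 ± 0.623 FPKM in libraries labelled PKI and 7.86 ± 0.113 FPKM in libraries labelled WT, and was called lower after scaling (log2 −0.26). Of 10 general endothelial markers, 2 rose (0 higher and 1 lower after scaling), Pecam1 among them (log2 0.23, turning to −0.04 after scaling).

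Few markers of other leukocytes reached the level for testing. None of the 13 T and NK cell markers reached the level for testing, and they summed to 0.903 to 1.38 FPKM in libraries labelled PKI and 0.743 to 1.32 FPKM in libraries labelled WT. No marker of monocytes (8 on 9 rows) or of mast cells and eosinophils (8) reached it either. The monocyte sums were 2.27 to 3.11 FPKM in libraries labelled PKI and 1.03 to 1.58 FPKM in libraries labelled WT. Mast cell and eosinophil sums were 1.95 to 2.98 FPKM in libraries labelled PKI and 0.40 to 1.45 FPKM in libraries labelled WT. As deposited, both of these sums were higher in libraries labelled PKI without overlap. So were those of B cells, platelets and, narrowly, dendritic cells. None of these sums was compared after scaling. Of the B cell markers 1 was tested and rose, Ighm (log2 0.53), which did not pass after scaling. Of the neutrophil and dendritic cell lists 1 each was tested, S100a9 (log2 −0.01) and H2-Aa (log2 0.35), and neither passed. The 9 dendritic cell markers summed to 14.0 to 22.2 FPKM in libraries labelled PKI and 12.9 to 13.9 FPKM in libraries labelled WT, most of it from H2-Aa, at 15.6 ± 3.91 FPKM in libraries labelled PKI and 11.8 ± 0.579 FPKM in libraries labelled WT (SD, n = 3 each). Pf4, a platelet chemokine outside the numbered symbols that macrophages also make, was the 1 tested platelet marker and rose (log2 0.74), not passing after scaling. Their part in the low chemokine values was not tested.

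**Figure D5:**
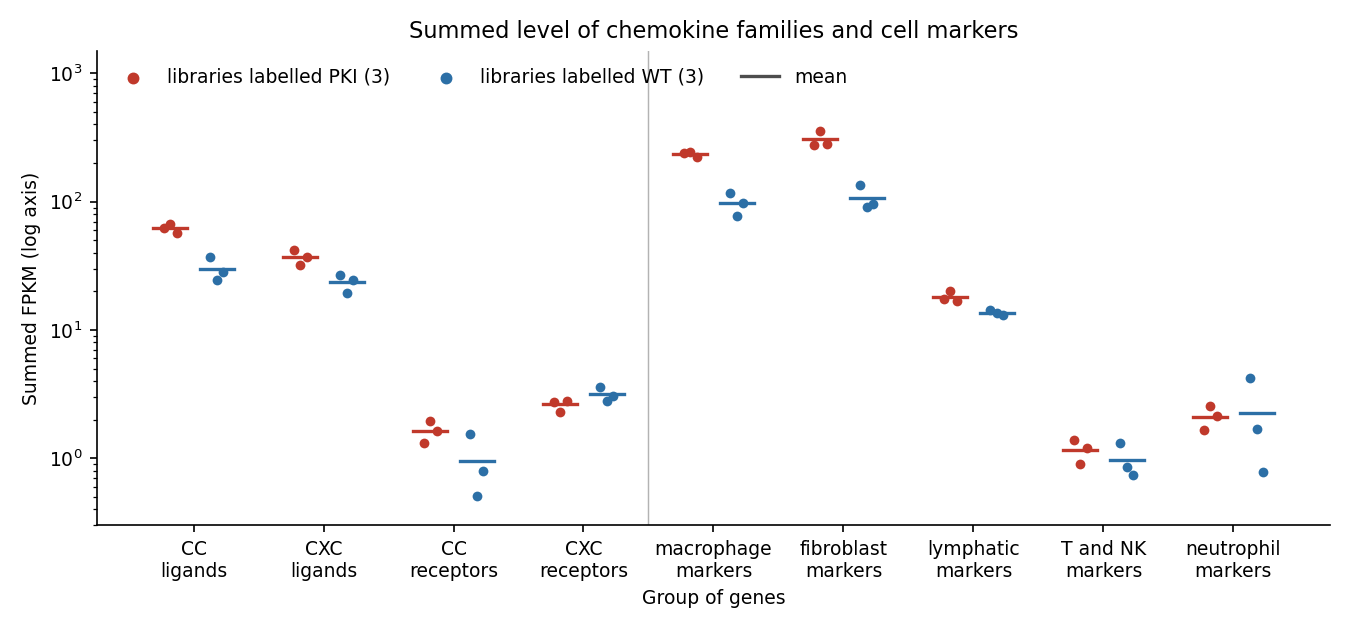
Summed FPKM of chemokine ligand and receptor families (left of the line) and of cell marker lists (right of the line), on a log axis, with 1 point per library and the group mean as a bar. Values are as deposited, not scaled. CC and CXC ligands, macrophage, fibroblast and lymphatic markers are higher in all libraries labelled PKI than in any library labelled WT, whereas CC receptors, T and NK cell markers and neutrophil markers overlap.

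The lists of genes around the chemokine family are set beside all tested genes, of which 36.4% were called higher as deposited and 7.82% after scaling. Among 14 other chemokines and atypical or related receptors, 8 were tested, 6 rose and 0 fell (3 and 0 after scaling). They included Ackr3 and Ackr4, which scavenges CCL19, CCL21 and CCL25. Ackr4 was at 1.55, 2.003 and 1.82 FPKM in libraries labelled PKI, against 0.436, 0.282 and 0.483 FPKM in libraries labelled WT, without overlap. It reached the level for testing through its values in libraries labelled PKI, so that it had to differ, and its test is not given. Cmklr1, the chemerin receptor, was 1.96-fold higher. Of 24 tested genes of receptor signalling, 12 rose and 0 fell, and their median log2 change was 0.31. After scaling 2 of the 24 were called higher and 0 lower, close to the share of all tested genes, and the median was 0.04. Grk5, a kinase that desensitises G protein-coupled receptors, was 2.24-fold higher, Cdc42, a GTPase of cell polarity, was at log2 0.45, and Gnai2, an inhibitory G protein subunit, was at log2 0.46. The last 2 did not pass after scaling.

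Of 24 tested genes of NF-κB and the cytokines that induce chemokines, 16 rose and 0 fell, at a median log2 change of 0.39. In the scaled fit, 5 were called higher and 2 lower. The 3 with the smallest p were the TNF receptor gene Tnfrsf1a (1.73-fold), the interferon gamma receptor gene Ifngr1 (1.59-fold) and Stat3 (1.68-fold), a transcription factor of the IL-6 family. The gene of TNF itself was low, with Tnf at 0.30 to 0.424 FPKM in libraries labelled PKI and 0.102 to 0.459 FPKM in libraries labelled WT. Of 18 tested genes that process chemokines or hold them at the cell surface, 13 rose and 0 fell (4 and 0 after scaling). The 13 included the sulphatase genes Sulf2 (1.96-fold) and Sulf1 (3.40-fold), which trim the heparan sulphate that chemokines bind. Also among them was Mmp2 (3.60-fold), a metalloproteinase that cleaves several chemokines. Sulf2 and Mmp2 passed after scaling. Sulf1 averaged under 1 FPKM in libraries labelled WT. To be tested it had to be higher in libraries labelled PKI, so its test is not given. Of the genes that rose in these lists, 1 of the other chemokines and receptors (Ackr4), 2 of the inducers (Irf7 and Tlr2) and 2 of the processing genes (Sdc1 and Sulf1) averaged under 1 FPKM in libraries labelled WT and were tested only through libraries labelled PKI, so the counts describe the genes that passed.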

How the data were processed

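FPKM per gene were deposited by the authors in a table with symbols and, with identical values, in a table without. CASAVA, Bowtie 0.12.2 and the build mm9 are named in the submitters' processing notes; which program and annotation gave the FPKM is not given in the sources used here. Read depth is unknown, so counting intervals could not be given. The FPKM of a library summed to 708058 to 767757. The 9907 genes averaging 1 FPKM or more entered limma (version 3.58.1, R 4.3.3) on the log2(FPKM + 1) scale. The test was two-sided, used a variance trend and was adjusted by Benjamini-Hochberg over all 9907 genes; folds are ratios of mean FPKM. Size factors for scaling, computed over genes above 0 in every library, were 1.10 to 1.13 in libraries labelled PKI and 0.898 to 0.922 in libraries labelled WT. The fit was tested on simulated data. As alternatives, the pseudocount was set to 0.1 or 0.5, the filter was removed or raised to 5 FPKM, values were scaled or quantile-normalised, the variance trend was dropped, a block for replicate number was added, and each library was left out in turn.

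The members, the 4 pathway lists and the 12 marker lists were chosen with earlier results of these data known. Every member is named except 1 low one, which is counted but not reported here, those at 1 FPKM or more with each library's value. Of each list at most the 3 genes with the smallest p were to be named, or 1 in lists of cells other than leukocytes; Prox1, Lyve1, Mmrn1, Tnf, Irf7, Tlr2, Sdc1 and Ly6g were added after their values were seen. Overlaps and copies were read from GENCODE M21 (GRCm38), promoters from RefSeq (GRCm38.p6). A deposited table of gene numbers by FPKM class was left aside.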

Additional observations from a re-analysis of the deposited data

How the results depend on the processing

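The 9 higher and 2 lower calls among the 13 tested chemokine members were kept in number with pseudocounts of 0.1 and 0.5 and without a variance trend. Without a filter on low values, where more genes were tested, 5 were called higher and 1 lower. At a minimum mean of 5 FPKM only 4 members were tested, and 4 were called higher and 0 lower. Scaling and quantile normalisation each gave 5 higher. Leaving out 1 library gave 6 to 9 higher and 1 to 2 lower. Over all tested genes, 3609 were higher and 293 lower as deposited, 1739 and 186 at a minimum mean of 5 FPKM, 775 and 909 after scaling and 753 and 762 with quantile normalisation. Leaving out 1 library gave 2179 to 3162 higher and 165 to 263 lower. Ppargc1a, at a log2 change of −0.16, was called lower after scaling (−0.44) and with quantile normalisation (−0.42), and was at −0.20 to −0.11 when 1 library was left out. Ccl7 ranged from −0.50 to 0.038 when 1 library was left out, turning without PKI replicate 2 (0.038) or 3 (0.024), and Cxcl13 from −0.83 to 0.15, turning without WT replicate 3. Of 173 values of single members under the alternatives, 139 kept direction and side of the threshold, 30 lost their call, 1 gained one and 3 turned. Apart from the fits with fewer or more genes or fewer samples, the cause was not tested.

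Same-numbered libraries of the 2 groups did not deviate together (r −0.10, 0.00115 and 0.05 over genes), so the numbers were not taken as pairs. With a replicate block, 8 members were called higher and 2 lower, the lost call being Cxcl12 (adjusted p = 0.0796), and 2625 genes were higher and 224 lower over all. WT replicate 2 was the lowest of its group for 11 of the 13 tested members.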
